A study of Homo sapiens with 4 samples.

Results

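The genes described here are 39 regulators of splicing, taken from a list of names and not selected on a measured threshold, out of 57820 gene identifiers in the count files. They comprise 14 genes of SR proteins (SRSF1 to SRSF12 with TRA2A and TRA2B), 19 genes of heterogeneous nuclear ribonucleoproteins (hnRNPs) and 6 genes of kinases that phosphorylate SR proteins (CLK1 to CLK4, SRPK1 and SRPK2). RNA came from SY5Y, an established human neuroblastoma cell line labelled MYCN wild type, harvested 12 h after treatment with the compound SGSS05-NS or with DMSO, its solvent. There were 2 libraries per condition, which the study calls independent biological replicates. The labels give a dose of 3 μM, as does the study in its description of RNA-seq results for this line, while its methods state a lower dose. The study calls the sequenced compound SGSS05-NS3, a covalent inhibitor of the histone methyltransferase SETD8, and also mentions a SETD8 inhibitor named SGSS05-NS, so which of them the label means is not settled. Every library therefore comes from 1 cell line, and the labels give no difference between conditions other than the compound.

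SR proteins carry RNA-binding domains and a tail rich in arginine and serine, bind exonic enhancers and usually favour the use of an exon. hnRNPs coat nascent transcripts and often oppose them, and several also act in mRNA export, stability and translation. CLK and SRPK kinases add phosphate to the arginine-serine tails, which sets where SR proteins sit in the nucleus and whether they are active. Many genes of these families limit their own output through transcripts that are degraded by nonsense-mediated decay or held in the nucleus with an intron. Counts per gene, as used here, add up all such transcripts and cannot tell them apart.

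Fragments counted on genes ranged from 21463105 to 25350204 per library. Levels are given as CPM, the fragments of a gene relative to the size of its library, normalized by the trimmed mean of M-values (TMM). A gene was called where the quasi-likelihood test of edgeR gave a Benjamini-Hochberg adjusted p-value under 0.001 among 16468 genes tested. Fold changes are on the log2 scale, with their standard error as SE. Of the 39 genes, 37 could be tested. No identifier of SRSF8 in the files had a match, and HNRNPH2 was listed at 0 in every library, as was the readthrough gene that overlaps it, so neither was measured. The share of fragments that met no annotated exon was 12.4% and 12.3% with DMSO and 16.1% and 15.3% with SGSS05-NS. Of 16 neuroblastoma cell markers, 15 were tested, of which 11 fell (73.3%, against 8.14% of all genes tested) and 0 rose, and the summed level of the list was 5701 and 6051 CPM with DMSO against 3380 and 3306 CPM with SGSS05-NS, with TH at 0 to 2 fragments in each library. Markers of other cell types were at or near 0, apart from TWIST1, PDGFRB and THY1 of the mesenchymal list, which summed to 288 and 308 CPM with DMSO and 225 and 205 CPM with SGSS05-NS, with DCN and PRRX1 at 0. The epithelial and blood lists summed to at most 3.66 CPM. The part of these shifts in the results below was not tested. KMT5A, which encodes SETD8, had 54.6 and 56.8 CPM with DMSO and 82.8 and 82.9 CPM with SGSS05-NS. Its mRNA does not check the labels, because the study describes an inhibitor of the protein.

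After SGSS05-NS, CLK1 and CLK3 rose, 5 hnRNP genes and SRPK2 fell, and no SR protein gene was called. Among the 37 genes tested, 2 were called higher and 6 were called lower, where 6.37% of all genes tested were called higher and 8.14% lower. The higher genes were both CLK kinases. Of the lower genes, 5 were hnRNPs and the other was SRPK2, and none of the 13 SR protein genes was called at this threshold. At an adjusted p-value under 0.05, 2 of the 13 were higher (15.4%, against 22.6% of all genes tested). At that value 1 was lower (7.69%, against 23.7%). The median log2 fold change was 0.08 for the SR protein genes, -0.39 for the hnRNP genes and 0.36 for the kinases, beside 0.01 for all genes tested. With SGSS05-NS, both libraries lay below both DMSO libraries for 16 of 18 hnRNP genes, 4 of 13 SR protein genes and 2 of 6 kinases, an order found in 36.9% of all genes tested. Both lay above for 1 hnRNP gene, 5 SR protein genes and 3 kinases, an order found in 37.8% of all genes tested.

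**Figure D1:**
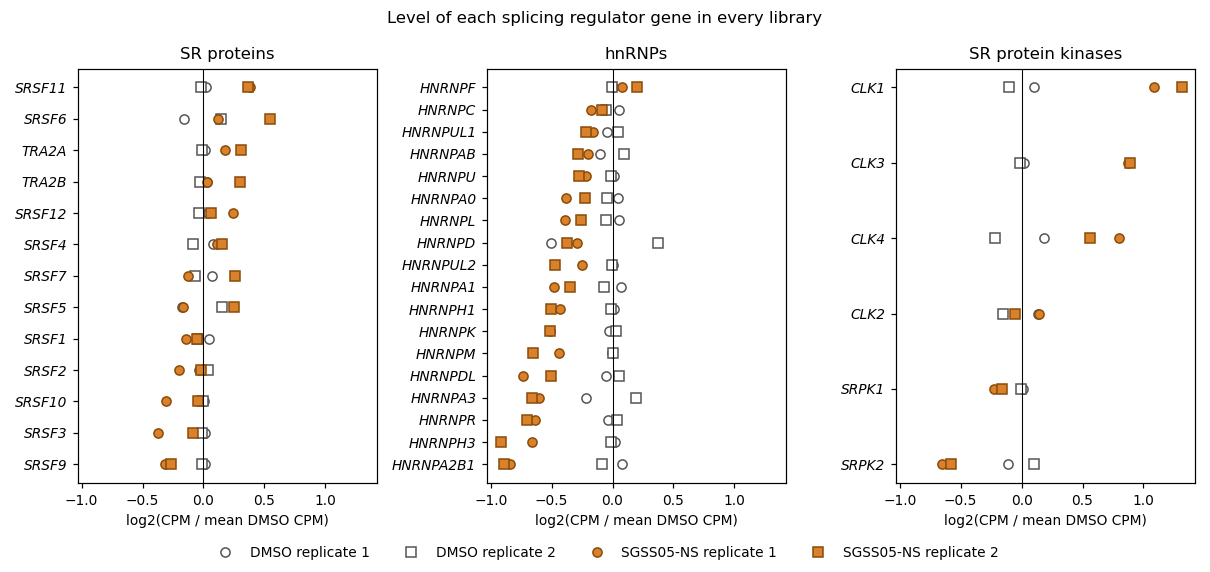
Each row is a gene and each point 1 library, placed by the log2 ratio of its CPM to the gene's mean CPM with DMSO, with open symbols for DMSO and filled symbols for SGSS05-NS. The filled symbols of 16 of 18 hnRNP genes sit left of both open symbols, those of CLK1, CLK3 and CLK4 sit right of them, and those of the SR protein genes lie on either side of 0.

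The CLK kinases are dual-specificity kinases of the nucleus. CLK1 (ENSG00000013441.11, chromosome 2 of GRCh37, 201717732 to 201729414, minus strand) had 37.3 and 32.3 CPM with DMSO and 73.8 and 86.5 CPM with SGSS05-NS. Both treated libraries were higher than both controls, and the log2 fold change was 1.20 (SE 0.11, edgeR adjusted p = 7.7e-06). CLK3 (chromosome 15, 74890841 to 74937755, plus strand) had 36.9 and 36.1 CPM with DMSO and 66.7 and 67.6 CPM with SGSS05-NS. The replicates of CLK3 were closer to each other than those of CLK1, and its log2 fold change was 0.88 (SE 0.09, edgeR adjusted p = 2.0e-05). CLK4, the closest relative of CLK1 and the least abundant kinase here, had 10.5 and 7.96 CPM with DMSO and 16.0 and 13.6 CPM with SGSS05-NS. Its groups did not overlap, but with 186 to 356 fragments per library its log2 fold change of 0.68 (SE 0.16, edgeR adjusted p = 0.0052) missed the threshold. It was called in 3 of the 9 other fits, the study's own likelihood ratio test among them (edgeR adjusted p = 0.00037), but not with DESeq2 (adjusted p = 0.0055) or limma voom (adjusted p = 0.0055). The log2 fold change of CLK4 was 0.89 without DMSO replicate 1 (edgeR adjusted p = 8.4e-05) and 0.47 without DMSO replicate 2 (edgeR adjusted p = 0.041). CLK2 had 35.1 and 28.8 CPM with DMSO and 35.2 and 30.8 CPM with SGSS05-NS. These values overlapped, and the 95% interval of its log2 fold change ran from -0.22 to 0.31, below the intervals of CLK1 and CLK3.

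The SRPK kinases load phosphate on SR proteins in the cytoplasm before their import into the nucleus. SRPK2 (chromosome 7, 104751151 to 105039755, minus strand) had 86.4 and 100.5 CPM with DMSO and 59.3 and 62.5 CPM with SGSS05-NS. Both treated libraries were lower than both controls, a log2 fold change of -0.62 (SE 0.10, edgeR adjusted p = 0.00047), and without DMSO replicate 2 the adjusted p-value was 0.0013. SRPK1, the most abundant of the 6 kinases in CPM, had 178.9 and 176.7 CPM with DMSO and 151.8 and 159.1 CPM with SGSS05-NS. Its groups did not overlap either, but its log2 fold change of -0.19 was not called (edgeR adjusted p = 0.10). SRPK2 is by far the longest of the 39 genes at 289 kb, followed by SRPK1 at 88.4 kb. The ratio of the summed CPM of the 4 CLK genes to that of the 2 SRPK genes was 0.452 and 0.379 with DMSO and 0.908 and 0.896 with SGSS05-NS. With 2 libraries against 2, the exact two-sided permutation test of this ratio gave p = 0.333, the smallest value it can give.

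**Figure D2:**
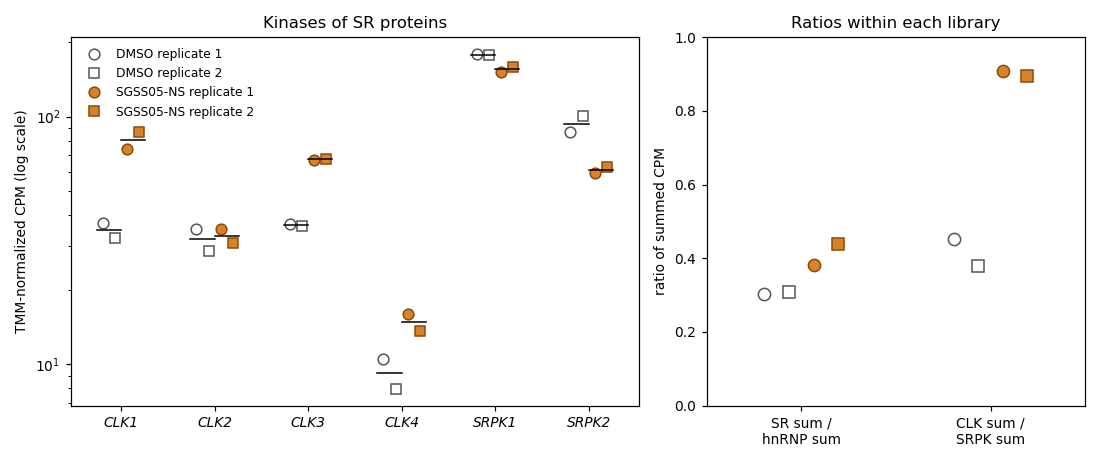
Left, the TMM-normalized CPM of each kinase gene in each library on a log scale, with a line at the mean of each condition. Right, the ratio of summed CPM of SR protein genes to hnRNP genes and of CLK to SRPK genes in each library, where the SGSS05-NS libraries lie above the DMSO libraries for both ratios.

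Among the SR protein genes, the differences were small in both directions. SRSF11 (ENSG00000116754.9, chromosome 1 of GRCh37, 70671365 to 70718735, plus strand), whose protein is an atypical SR protein that contacts U2AF, had 135.6 and 132.4 CPM with DMSO and 174.2 and 173.0 CPM with SGSS05-NS. Its groups were well apart, and its log2 fold change of 0.37 (SE 0.09, edgeR adjusted p = 0.0053) was the largest of the group, yet it did not pass the threshold. TRA2A, which encodes a splicing activator related to SR proteins, had 93.0 and 91.0 CPM with DMSO and 104.0 and 114.0 CPM with SGSS05-NS, a log2 fold change of 0.24 that was not called. Its paralog TRA2B had 320.2 and 309.2 CPM with DMSO and 320.2 and 387.0 CPM with SGSS05-NS, so 1 treated library equalled a control library to the precision given. SRSF4, a member with a long arginine-serine tail, had 105.0 and 94.0 CPM with DMSO and 107.5 and 110.6 CPM with SGSS05-NS. SRSF6, its close relative, had 260.6 and 321.2 CPM with DMSO and 315.2 and 425.5 CPM with SGSS05-NS, and the conditions overlapped. The log2 fold change of SRSF6 was 0.35 (SE 0.14, edgeR adjusted p = 0.059). It was called in 0 of the 9 other fits. Without SGSS05-NS replicate 1 the log2 fold change of SRSF6 was 0.54 (edgeR adjusted p = 0.00062), and without SGSS05-NS replicate 2 it was 0.12 (edgeR adjusted p = 0.46).

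On the lower side, SRSF9 had 146.1 and 143.2 CPM with DMSO and 115.9 and 120.1 CPM with SGSS05-NS. Its log2 fold change was -0.29 (SE 0.09, edgeR adjusted p = 0.019), and between 515 and 840 fragments per library lay on the strand opposite to it. SRSF3, one of the smallest SR proteins, had 599.6 and 589.0 CPM with DMSO and 458.2 and 559.1 CPM with SGSS05-NS, so the treated replicates were further from each other than the higher of them was from the controls. SRSF10, a splicing repressor when it loses its phosphate, had 48.6 and 48.2 CPM with DMSO and 39.2 and 46.9 CPM with SGSS05-NS, and its log2 fold change was -0.17. Neither gene was called. With 1 library left out, the log2 fold change of SRSF10 ranged from -0.31 to -0.05 and that of SRSF3 from -0.37 to -0.10, both nearest to 0 without SGSS05-NS replicate 1. SRSF1, the founding member of the family, had 510.8 and 478.4 CPM with DMSO and 448.5 and 478.0 CPM with SGSS05-NS. SRSF2, which had the highest level per kb of exon among SR protein genes, had 406.3 and 428.5 CPM with DMSO and 362.4 and 411.4 CPM with SGSS05-NS. The 95% intervals of the log2 fold change were -0.30 to 0.11 for SRSF1 and -0.32 to 0.11 for SRSF2, so changes of the size seen in CLK1 lay outside them. SRSF2 is transcribed opposite to another gene, and 45.8% of its fragments were lost when strand was disregarded in counting.

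SRSF5 was nearest to no change, with 97.0 and 121.7 CPM with DMSO and 97.1 and 130.2 CPM with SGSS05-NS. The remaining SR protein genes, SRSF7 and SRSF12, had log2 fold changes of 0.08 and 0.15. In 11 of the 13 SR protein genes the level was higher in SGSS05-NS replicate 2 than in SGSS05-NS replicate 1, as it was in 7 of 18 hnRNP genes. Between the DMSO libraries, replicate 2 was the higher in 3 of 13 SR protein genes and 8 of 18 hnRNP genes. The share over all genes tested is not given here. The summed level of the SR protein genes was 3040 and 3045 CPM with DMSO and 2826 and 3314 CPM with SGSS05-NS, so the treated libraries lay on either side of the controls. Without SGSS05-NS replicate 2, the median log2 fold change of the group was -0.13 instead of 0.08.

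**Figure D3:**
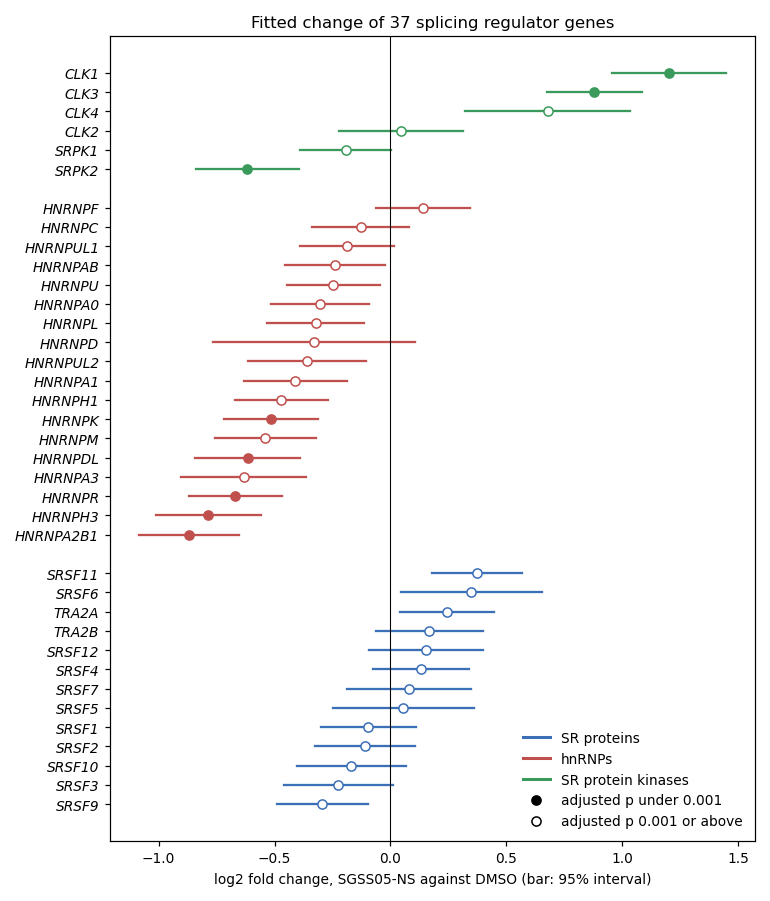
Fitted log2 fold change of each gene with its 95% interval, SGSS05-NS against DMSO, with filled points for genes at an adjusted p-value under 0.001. All intervals of the SR protein genes lie between -0.49 and 0.65, while the filled points are CLK1, CLK3, SRPK2 and 5 hnRNP genes.

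The hnRNP genes were the group with the most calls by number, though not by share. Of the 6 kinases, 2 rose (33.3%, against 6.37% of all genes tested) and 1 fell (16.7%, against 8.14%). Of 18 hnRNP genes tested, 5 fell and 0 rose, 27.8% lower against 8.14% of all genes tested. At an adjusted p-value under 0.05 there were 13 lower, 72.2% against 23.7% of all genes tested, and 0 higher, against 22.6%. HNRNPA2B1 (ENSG00000122566.16, chromosome 7 of GRCh37, 26210771 to 26241149, minus strand), whose protein binds RNA throughout the nucleus and sorts microRNAs and mRNAs, had 1113 and 994 CPM with DMSO and 587 and 567 CPM with SGSS05-NS. Its mean level fell by 45.2%, the lowest log2 fold change of all 37 genes at -0.87 (SE 0.10, edgeR adjusted p = 3.3e-05). HNRNPH3 (chromosome 10, 70090931 to 70102950, plus strand), of the family that binds runs of G, had 130.8 and 127.8 CPM with DMSO and 81.6 and 68.4 CPM with SGSS05-NS. Its level fell by 42.0%, a log2 fold change of -0.79 (SE 0.10, edgeR adjusted p = 9.9e-05).

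HNRNPR (chromosome 1, 23630264 to 23670829, minus strand), which takes part in axonal mRNA transport in motor neurons, had 459.3 and 481.1 CPM with DMSO and 301.7 and 289.7 CPM with SGSS05-NS. The log2 fold change was -0.67 (SE 0.09, edgeR adjusted p = 0.00013). HNRNPDL, a paralog of HNRNPD, had 417.6 and 448.9 CPM with DMSO and 259.8 and 305.7 CPM with SGSS05-NS, a log2 fold change of -0.62 (SE 0.10, edgeR adjusted p = 0.00057). HNRNPK, which binds runs of C through KH domains and is also a cofactor of p53, had 1008 and 1051 CPM with DMSO and 719.8 and 722.0 CPM with SGSS05-NS. Its log2 fold change was -0.51 (SE 0.09, edgeR adjusted p = 0.00088), close to the threshold, and it was called in 6 of the 9 other fits and in 3 of the 4 fits that left out a library. For HNRNPA2B1, HNRNPH3, HNRNPR and HNRNPDL all 9 other fits made the call. In those fits and in the ones with a library left out, their log2 fold changes lay between -0.97 and -0.51.

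The other hnRNP genes had smaller or less certain differences. HNRNPA1, the most abundant gene of the 37 in CPM and per kb of exon, had 2008 and 1824 CPM with DMSO and 1373 and 1508 CPM with SGSS05-NS. The treated libraries were both lower, but its log2 fold change of -0.41 (SE 0.10, edgeR adjusted p = 0.0063) was not called. GENCODE lists 74 pseudogenes named after HNRNPA1, and the counts leave out multimapping fragments, so its level is uncertain. The same limit applies in part to others. Of the 39 genes, 22 have pseudogenes named after them, including HNRNPK with 5 and HNRNPDL with 4, which were called. HNRNPM, HNRNPA3 and HNRNPH1 lay just outside the threshold, with log2 fold changes of -0.54, -0.63 and -0.47 and edgeR adjusted p-values of 0.0011, 0.0015 and 0.0016. Each of them was called in some of the other fits, 7 of 9 for HNRNPM and 4 of 9 for the others. HNRNPA0, HNRNPL, HNRNPU, HNRNPUL2, HNRNPAB and HNRNPUL1 had log2 fold changes from -0.36 to -0.19, none of them called.

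HNRNPC, the hnRNP nearest to no change, had 976 and 905 CPM with DMSO and 834 and 887 CPM with SGSS05-NS, with a 95% interval of the log2 fold change from -0.34 to 0.08. HNRNPF, the only hnRNP gene with a log2 fold change above 0, had 313.9 and 313.1 CPM with DMSO and 330.9 and 360.0 CPM with SGSS05-NS (log2 fold change 0.14, edgeR adjusted p = 0.24). HNRNPF and HNRNPH3 belong to 1 subfamily, and the interval of HNRNPF, from -0.06 to 0.34, did not reach that of HNRNPH3, from -1.01 to -0.56. HNRNPD had 116.7 CPM in DMSO replicate 1, 214.9 CPM in DMSO replicate 2 and 135.8 and 128.2 CPM with SGSS05-NS. Its control libraries thus spanned the treated libraries. The log2 fold change of HNRNPD was -0.71 without DMSO replicate 1 (edgeR adjusted p = 2.5e-06) and 0.16 without DMSO replicate 2, so it gives no direction. More hnRNP genes were called lower without DMSO replicate 1, or without SGSS05-NS replicate 1, but the calls over all genes in those fits are not given here.

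The summed level of the 18 hnRNP genes was 10027 and 9901 CPM with DMSO and 7413 and 7546 CPM with SGSS05-NS, 24.9% lower in the mean, and 23.2% lower when each gene was first divided by its exon length. The ratio of the summed SR protein genes to the summed hnRNP genes was 0.303 and 0.308 with DMSO and 0.381 and 0.439 with SGSS05-NS (exact two-sided permutation test, p = 0.333, the smallest possible here). Within the hnRNP A/B genes the shift was unequal. The ratio of HNRNPA2B1 to HNRNPA1 was 0.555 and 0.545 with DMSO and 0.428 and 0.376 with SGSS05-NS.

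**Figure D4:**
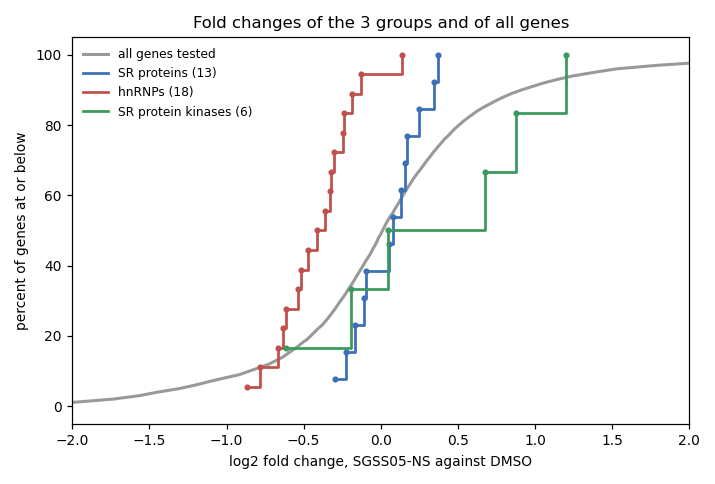
Cumulative percent of genes at or below each log2 fold change, SGSS05-NS against DMSO, for the 3 groups and for all 16468 genes tested, of which those beyond ±2 are not shown. The curve of the hnRNP genes lies left of 0 for 17 of 18 genes, while that of the SR protein genes is steeper than the grey curve and centred near 0.

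Promoters are shown for 5 genes, the called CLK genes, which held none of the motifs searched, and the 3 hnRNP genes that fell and held one. They were picked by call and motif together, so the display cannot link a motif to a direction. HNRNPR, HNRNPK and SRPK2 fell and held none of the motifs searched. The windows come from RefSeq, which had an entry for 36 of the 39 genes, each found at 1 place in GRCh37. SRSF2, TRA2A and HNRNPA1 had none. A RefSeq start can lie inside the GENCODE span given above, as it does for CLK3. Each sequence is the 250 bases before the first listed start, 5′ to 3′ on the gene's strand, in lower case, with capitals for matches to the E-box CACGTG, the site of MYC proteins, or to the heat shock element GAANNTTC.
CLK1, chr2:201729382-201729631, minus strand: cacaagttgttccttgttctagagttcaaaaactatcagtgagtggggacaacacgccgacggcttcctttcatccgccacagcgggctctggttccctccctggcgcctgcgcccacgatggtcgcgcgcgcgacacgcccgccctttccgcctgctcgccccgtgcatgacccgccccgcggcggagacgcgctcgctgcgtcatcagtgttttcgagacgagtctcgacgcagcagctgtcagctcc
CLK3, chr15:74900463-74900712, plus strand: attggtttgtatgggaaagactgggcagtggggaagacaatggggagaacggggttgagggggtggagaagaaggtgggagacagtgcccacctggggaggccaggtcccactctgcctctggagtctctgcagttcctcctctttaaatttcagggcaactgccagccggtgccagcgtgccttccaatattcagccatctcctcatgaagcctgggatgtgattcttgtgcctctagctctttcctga
HNRNPA2B1, chr7:26240367-26240616, minus strand: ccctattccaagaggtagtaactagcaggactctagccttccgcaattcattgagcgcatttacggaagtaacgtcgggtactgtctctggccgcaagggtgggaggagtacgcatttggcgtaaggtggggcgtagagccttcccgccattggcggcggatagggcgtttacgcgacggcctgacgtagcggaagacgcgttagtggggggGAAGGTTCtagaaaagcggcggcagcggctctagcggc
HNRNPH3, chr10:70091200-70091449, plus strand: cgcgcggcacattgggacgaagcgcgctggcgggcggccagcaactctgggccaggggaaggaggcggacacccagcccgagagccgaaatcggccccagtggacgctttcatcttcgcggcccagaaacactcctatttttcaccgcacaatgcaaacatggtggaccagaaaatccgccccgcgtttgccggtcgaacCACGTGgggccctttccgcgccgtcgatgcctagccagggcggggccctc
HNRNPDL, chr4:83351379-83351628, minus strand: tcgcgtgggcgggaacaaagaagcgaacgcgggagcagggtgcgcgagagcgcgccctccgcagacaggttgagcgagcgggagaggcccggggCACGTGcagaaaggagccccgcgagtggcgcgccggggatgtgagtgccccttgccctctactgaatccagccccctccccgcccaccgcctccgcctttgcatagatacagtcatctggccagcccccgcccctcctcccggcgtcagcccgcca
The promoter of HNRNPA2B1 held a match to GAANNTTC 38 bases before the start, and those of HNRNPH3 and HNRNPDL a match to CACGTG 50 and 156 bases before it.

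Over windows of 300 bases, with 50 bases after the start included and both strands read, since each motif is its own reverse complement, an E-box was present in 7 of 18 hnRNP promoters, 2 of 6 kinase promoters and 0 of 12 SR protein promoters. It was in 7.43% of 27305 promoters and in 9.90% of the 11044 promoters of genes tested. The hnRNP genes with an E-box were HNRNPDL and HNRNPH3, which fell, HNRNPA3, HNRNPM, HNRNPD and HNRNPUL1, which were not called, and HNRNPH2, which was not tested. HNRNPA2B1, HNRNPR and HNRNPK fell without one. The kinase genes with an E-box were CLK2 and CLK4, which were not called, while SRPK2 fell without one. A match to the heat shock motif GAANNTTC was in 3 of the 36 promoters (6.87% of all promoters and 4.51% of those of genes tested). The p53 half-site was in 2 (6.54% and 5.15%) and the cyclic AMP response element TGACGTCA in 0 (1.98% and 3.38%). These are matches of letters in short windows and say nothing about binding.

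Spearman's rank correlation between log2 fold change and gene length was 0.16 across the 18 hnRNP genes and 0.26 across the 13 SR protein genes, and -0.77 across the 6 kinases, all of which share the same 4 libraries and are not independent. In GENCODE 44, transcripts marked for nonsense-mediated decay are annotated for 13 of 13 SR protein genes tested, 13 of 18 hnRNP genes and 5 of 6 kinases, against 47.2% of protein-coding genes tested. The number of such transcripts overlapped between called and uncalled genes. It was 35 for HNRNPA2B1, 4 for HNRNPDL, 2 for HNRNPK, 1 for HNRNPR and 0 for HNRNPH3, all of which fell, and 18 for the uncalled HNRNPA1. Transcripts annotated as retaining an intron are listed for 12 of 13 SR protein genes, 14 of 18 hnRNP genes and 5 of 6 kinases, against 60.1% of protein-coding genes tested.

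Further genes of splicing were read from lists written from general knowledge. Of 14 relatives of the hnRNPs tested, 3 fell (21.4%, against 8.14% of all genes tested) and 0 rose. At an adjusted p-value under 0.05, 8 were lower (57.1%, against 23.7% of all genes tested) and 2 were higher (14.3%, against 22.6%). The higher genes were HNRNPLL and PCBP1, both at a log2 fold change of 0.36. The called genes were RBMX (log2 fold change -0.63, edgeR adjusted p = 0.00026), whose protein is also known as hnRNP G, RALY (-0.50) and the poly(C)-binding protein gene PCBP3 (-0.55). Of 19 genes of SR-related proteins, 1 rose (5.26%, against 6.37% of all genes tested) and 0 fell (against 8.14%). The gene was SRRT (0.70, edgeR adjusted p = 8.8e-05), which encodes the cap-binding partner ARS2. SRRM4, the neural activator of microexons, had a log2 fold change of -0.73 that was not called. Of 15 other kinases and phosphatases of SR proteins, DYRK1B alone was called (0.59, higher), 6.67% against 6.37% of all genes tested. The median log2 fold change was -0.32 in the hnRNP relatives and 0.18 in the SR-related list, beside 0.01 in all genes tested.

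Of 18 tissue-restricted splicing regulators tested, 5 fell (27.8%, against 8.14% of all genes tested) and 1 rose (5.56%, against 6.37%). CELF4 had 21.5 and 24.9 CPM with DMSO and 6.49 and 7.74 CPM with SGSS05-NS (log2 fold change -1.70, edgeR adjusted p = 4.1e-06). The neuronal ELAVL4 (-1.16) and ELAVL2 (-1.17) were lower as well, larger differences than in any hnRNP gene. ELAVL4 is also on the list of neuroblastoma cell markers. Of 20 RBM genes, 1 rose (5%, against 6.37% of all genes tested) and 0 fell (against 8.14%). The gene was RBM15 (0.77), which guides methylation of adenosine in RNA. Of 51 genes of the core spliceosome, 2 rose and 3 fell. The lower genes were SNRPD1 (-0.66), SNRPG (-0.56) and DDX46 (-0.51). Of 16 factors of nonsense-mediated decay, 2 rose, SMG5 (0.55) and SMG8 (0.63), and 2 fell, SMG6 (-0.62) among them. That is 12.5% in either direction, against 6.37% higher and 8.14% lower of all genes tested. The core spliceosome thus had 3.92% of its genes higher and 5.88% lower, both under the shares of all genes tested.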

How the data were processed

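RNA of SY5Y cells was sequenced as 4 libraries. Low-quality bases were removed with Trimmomatic 0.30, and alignment to hg19 used STAR 2.4.2a with GENCODE 19 (versions from the submitters' processing notes and the methods). The authors deposited STAR's raw gene counts of fragments in 3 columns, unstranded and for either strand, with no normalization. The column of the reverse strand was analysed, and the 4 summary rows were left out. The kit is stranded according to the methods, which the labels do not state. Symbols, positions and exon lengths were taken by identifier from GENCODE 44 on GRCh37, the same build (55538 of 57820 identifiers matched), and promoters from RefSeq.

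Counts were filtered with filterByExpr, scaled by TMM and tested with edgeR 4.0.16 in R 4.3.3 by the quasi-likelihood test with Benjamini-Hochberg adjustment at the threshold of 0.001 that the study uses. The standard error was taken from the F statistic. Replicates differed by more than sampling noise (chi-square divided by its degrees of freedom was 8.76 for DMSO and 11.8 for SGSS05-NS). Values in every library are given for up to 5 genes of each group in each direction with the smallest p-values, the 2 highest per kb of exon, the one nearest to no change, and all kinases. From each further list the 3 genes with the smallest p-values were eligible. HNRNPD, the genes just outside the threshold and the genes named for annotation or motifs were picked with their values already in view. All members and lists were chosen with earlier results of these data known. The test was checked on simulated data. The alternatives used limma 3.58.1 and DESeq2 1.42.0 among others.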

Additional observations from a re-analysis of the deposited data

Results flagged for a closer look

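The strand opposite to the analysed one was not part of any comparison above. Across all genes its share of fragments was 4.64% to 5.05%. At 2 of the 37 genes, both SGSS05-NS libraries had more than 2 times the higher DMSO level on that strand, with at least 10 fragments in each. SRSF12 had 3 and 2 opposite-strand fragments with DMSO and 19 and 23 with SGSS05-NS, a ratio of scaled counts of 8.90 with an exact binomial 95% interval from 3.53 to 28.8. HNRNPH3, which fell on its own strand, had 11 and 11 opposite-strand fragments with DMSO and 31 and 38 with SGSS05-NS, a ratio of 3.32 with an interval from 2.03 to 5.64. Both genes were picked on these same counts, so the ratios and intervals are no test of a difference. SRSF12 met the minimum of 10 only in the SGSS05-NS libraries. The share of all genes that would pass this rule is not given here. The intervals cover counting error only. They leave out variation between libraries, and fragments amplified by PCR are not independent molecules. Whether an antisense transcript or a neighbouring gene is the source was not tested.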

How the results depend on the processing

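Each result was recomputed with 3 other tests, 2 other scalings, 2 other filters, a replicate block, unstranded counts and other thresholds. Each library was also left out once, where the lone library of a condition is assumed to vary like the other condition. CLK1, CLK3, HNRNPA2B1, HNRNPH3, HNRNPR and HNRNPDL kept their direction in all of these. Their calls held with the other tests, scalings and filters, the replicate block and unstranded counts. The looser thresholds cannot take a call away. With a library left out, the adjusted p-values of CLK1, CLK3, HNRNPA2B1, HNRNPR and HNRNPDL were smaller than with all libraries. Calls in those fits are therefore a weak check. The number of hnRNP genes called lower, 5, became 4 with library size only, 4 with at least 10 counts in every library, 6 with DESeq2's size factors, 6 with unstranded counts, 7 with limma voom, 8 with the likelihood ratio test, 9 with DESeq2, 9 with no filter on low counts, 9 at an adjusted p-value under 0.01 and 13 at 0.05. With library size only, SRPK2 was no longer called, so 0 kinases were lower. Of the SR protein genes, 1 was higher at 0.01, and 2 were higher and 1 lower at 0.05. The median log2 fold change of the hnRNP genes was -0.35 with library size only, -0.41 with no filter and -0.42 with unstranded counts.

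Over all genes, the counts of 1049 higher and 1341 lower genes became 2022 and 2267 with the likelihood ratio test, 2034 and 2570 with no filter, 2321 and 2616 at an adjusted p-value under 0.01, and 3728 and 3903 at 0.05. The lower genes over all numbered 1378 with DESeq2's size factors, 1306 with limma voom and 1576 with DESeq2. Their numbers with library size only, at least 10 counts in every library and unstranded counts are not given here. With the replicate block there were 1759 higher genes over all, CLK4 was called (edgeR adjusted p = 0.00023) and HNRNPK was not (0.0015). In that fit 6 hnRNP genes were lower, and the number of all genes called lower is not given here. The replicate numbers are not known to mark a shared batch. Deviations of libraries with the same number correlated at 0.061 across genes, and whether such libraries shared a batch was not tested.

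With 1 library left out, the median log2 fold change of the hnRNP genes ranged from -0.43 to -0.41 and that of the SR protein genes from -0.13 to 0.14. The numbers of genes called moved as well, and the calls over all genes in these fits are not given here. Direction changed for SRSF5 (-0.17 to 0.24, below 0 without DMSO replicate 1 or SGSS05-NS replicate 2), SRSF7 (-0.13 to 0.25, below 0 without DMSO replicate 2 or SGSS05-NS replicate 2), CLK2 (-0.11 to 0.19, below 0 without DMSO replicate 2 or SGSS05-NS replicate 1) and HNRNPD (-0.71 to 0.16, above 0 without DMSO replicate 2). Without a call in any of these fits, values came as near to 0 as -0.06 for SRSF1, -0.03 for SRSF2, 0.04 for SRSF4, 0.06 for SRSF12 and 0.03 for TRA2B. The cause of these changes was not tested. The median standard error of the log2 fold change over the 37 genes was 0.10, which limits what differences near 0 can show.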
